A study of Mus musculus with 9 samples.

Results

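Interferon-stimulated genes are the genes that a cell switches on when it senses interferon, and 39 of them were followed in mouse retinal explants cultured with or without 2-deoxy-D-glucose (2-DG). They were found by gene symbol among the 55487 genes of the count table, and all 39 had a row and enough counts to be tested. They were divided by role into 7 families: signalling and transcription factors (5 genes), sensors of RNA (5), IFIT proteins (4), OAS enzymes with the kinase PKR (5), GBP and IRG GTPases (6), PARP enzymes with DTX3L (3) and other effectors (11).

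Type I interferons are secreted when receptors inside a cell meet viral or misplaced nucleic acid. They bind the IFNAR1 and IFNAR2 receptor, whose Janus kinases phosphorylate STAT factors, among them STAT2. With IRF9 these form the factor ISGF3, which binds the interferon-stimulated response element (ISRE) in promoters, whereas interferon gamma acts mainly through the GAS element. The induced proteins block translation and replication of viruses, and many are also sensors or factors of the pathway itself. In the retina such genes are known to respond in microglia, Müller glia, vessels and neurons.

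The mice were wild type, of the strain C57BL/6J and at postnatal day 28. Their retinas were freed of the retinal pigment epithelium and kept for 48 h in Neurobasal-A medium. The control group (5 libraries) had 5 mM glucose, and the 2-DG group (4 libraries) had 5 mM glucose with 20 mM 2-DG, a glucose analog that blocks glycolysis. Both groups then spent 1 h in Krebs' Ringer medium, and neither carried a transgene or a deletion. The titles call the libraries biological replicates but do not say which mouse each came from, and groups were taken from the titles and the treatment labels. The explants hold every retinal cell type, so fewer cells of a type and less RNA per cell cannot be told apart.

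Libraries held 11318087 to 51802230 estimated counts. Levels are given as CPM, counts scaled to a common library size, and 3 counts corresponded to between 0.0556 and 0.255 CPM. Control replicate 2 stood apart, with 40755.2 CPM in the sum of 7 rod photoreceptor markers, against 4697.1 to 15430.9 CPM in the other 8. Its 4 cone markers summed to 481.5 CPM and those of 2-DG replicate 3 to 596.6 CPM, against 29.4 to 72.9 CPM elsewhere. In 2-DG replicate 3 the 4 markers of retinal pigment epithelium summed to 81.4 CPM, against 1.36 to 19.5 CPM in the other libraries. Bipolar markers summed to 142.8 to 1755.8 CPM in control and 270.7 to 2747.1 CPM in 2-DG, and amacrine and ganglion cell markers to 299.7 to 1317.2 and 260.9 to 919.6 CPM. The total of control replicate 2, 14802708 counts, lay above those of control replicate 3 and 2-DG replicate 1. Each comparison was made with and without control replicate 2. Retinal identity was checked against markers: all 7 rod, 6 Müller glia and 5 bipolar cell markers were detected, and no list had a marker at 0 in every library.

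The ISRE is the sequence by which most of these genes are addressed, and its core was searched in RefSeq promoter windows (GRCm38.p6, from 250 bases before to 50 bases after the start). A window was available for 29 of the 39 members. The core, GAAANNGAAA or TTTCNNTTTC on the other strand, was present in 18 of these 29 genes (62.1%), against 3.99% of 27025 genes with a window of the same length. It occurred at least 2 times in 9 members, against 0.266% of all genes. The GAS element, TTCNNNGAA, was present in 9 members (31.0%), against 9.55% of all genes. Neighbouring cores overlap in Isg15, Oas1a, Gbp3, Irgm1 and Bst2, and in Bst2 a GAS match at −136 also overlaps the first core. Ifit2 and Fgl2 had a GAS match and no core in their windows. The stretches listed here, written 5′ to 3′ along each gene with the core in capitals, show it in some of the members with a fold change well below 0 and in Stat2 and Bst2, which were above 0 with all libraries. A match is a description of letters, not evidence of binding.
Ifit1 (chr19:34640765-34640833, + strand): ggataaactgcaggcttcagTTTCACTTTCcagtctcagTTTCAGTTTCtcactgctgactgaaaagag
Ifit3 (chr19:34583353-34583436, + strand): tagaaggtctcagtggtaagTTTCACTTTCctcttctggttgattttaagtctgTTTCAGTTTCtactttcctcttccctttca
Ifit3b (chr19:34607749-34607832, + strand): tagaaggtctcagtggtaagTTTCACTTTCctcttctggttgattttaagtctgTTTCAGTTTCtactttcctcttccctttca
Ddx60 (chr8:61928014-61928086, + strand): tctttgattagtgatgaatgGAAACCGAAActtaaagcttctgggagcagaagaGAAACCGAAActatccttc
Isg15 (chr4:156200855-156200916, − strand): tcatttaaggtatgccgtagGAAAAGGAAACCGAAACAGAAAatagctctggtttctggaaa
Oas1a (chr5:120907526-120907565, − strand): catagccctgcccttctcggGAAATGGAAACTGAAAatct
Trim30a (chr7:104465200-104465249, − strand): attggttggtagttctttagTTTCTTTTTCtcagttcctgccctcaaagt
Rsad2 (chr12:26456543-26456592, − strand): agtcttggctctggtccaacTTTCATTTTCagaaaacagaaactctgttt
Stat2 (chr10:128270256-128270305, + strand): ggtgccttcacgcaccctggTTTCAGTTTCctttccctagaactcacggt
Bst2 (chr8:71537567-71537622, − strand): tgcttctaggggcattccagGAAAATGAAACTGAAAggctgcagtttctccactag

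The stretches of Ifit3 and Ifit3b were identical over 84 bases, at −176 to −93 from the start of Ifit3 and at −208 to −125 from that of Ifit3b. The core of Stat2 lay far from its start, at −222, and that of Oas1a close to it, at −20. Several members are neighbours in the genome, in GENCODE M21 on GRCm38. Ifit2, Ifit3, Ifit3b and Ifit1 lie within 99.3 kb of chromosome 19, Gbp7, Gbp3 and Gbp2 within 107.7 kb of chromosome 3, Oas2, Oas1b and Oas1a within 177.2 kb of chromosome 5, and Parp14, Dtx3l and Parp9 within 139.7 kb of chromosome 16. The 5′ ends of Parp9 and Dtx3l, which are read in opposite directions and overlap there, lie 681 bases apart. The longest open reading frames of Ifit3 and Ifit3b were identical at 1201 of 1212 bases (99.1%), so their reads can be shared and their separate values are uncertain. Gbp3 and Gbp7 matched at 76.5%, and Irgm1 and Igtp at 65.4%.

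The question was how these genes respond when glycolysis is blocked during culture. Most were lower in 2-DG, but no gene of the series passed the test with all 9 libraries in edgeR. Of the 39 members, 36 had a log2 fold change of 2-DG against control below 0 (92.3%, against 50.8% of the 21049 genes tested). Their median log2 fold change was −0.85, against −0.01 over all genes. With edgeR, 0 members had an adjusted p under 0.05, as had 0.0% of all genes. At an unadjusted p under 0.05, 7 members were lower (background 4.83% of genes) and 0 were higher (background 2.42%): Ifit2, Ifit3, Ifit3b, Oas2, Ifi204, Trim30a and Fgl2. With the replicate number as a block in the fit, 2 members were lower (background 3.18%). The median log2 fold change of the members was then −0.41, against −0.05 over all genes. The other tools run gave 1 member (2.56%) past an adjusted p of 0.05 with DESeq2, Trim30a, against 1.35% of all genes, and 11 (28.2%) with limma-voom with quality weights, against 5.81%. Without 2-DG replicate 3, edgeR gave 0 members past an adjusted p of 0.05 and 5 lower at an unadjusted p under 0.05 (background 4.42%), with a median log2 fold change of −0.80. The list holds genes that the study had itself listed from these libraries, among them Ifit2, Ifit3, Ifi204 and Fgl2, so these counts are not independent evidence of a direction.

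Control replicate 2 was the lowest of the controls in 36 of 39 members, against 30.7% of all genes tested. For these members, leaving it out raises the control mean and narrows the control spread by itself. The counts without it are therefore no added evidence of a direction. Without control replicate 2 the same comparison gave lower values with less spread. Then 37 of 39 members were below 0 (94.9%, against 46.9% of 20632 genes), with a median log2 fold change of −1.12 against 0.03 over all genes. There were 24 members lower at an unadjusted p under 0.05, with a background of 6.07%. Trim30a passed an adjusted p of 0.05, and 0.0727% of genes did so in this direction. The groups did not overlap, with all 4 2-DG libraries below the other 4 controls, in 18 members, against 4.51% of all genes. With all 9 libraries 0 members had groups that did not overlap, against 1.41% of genes lower in 2-DG.

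**Figure D1:**
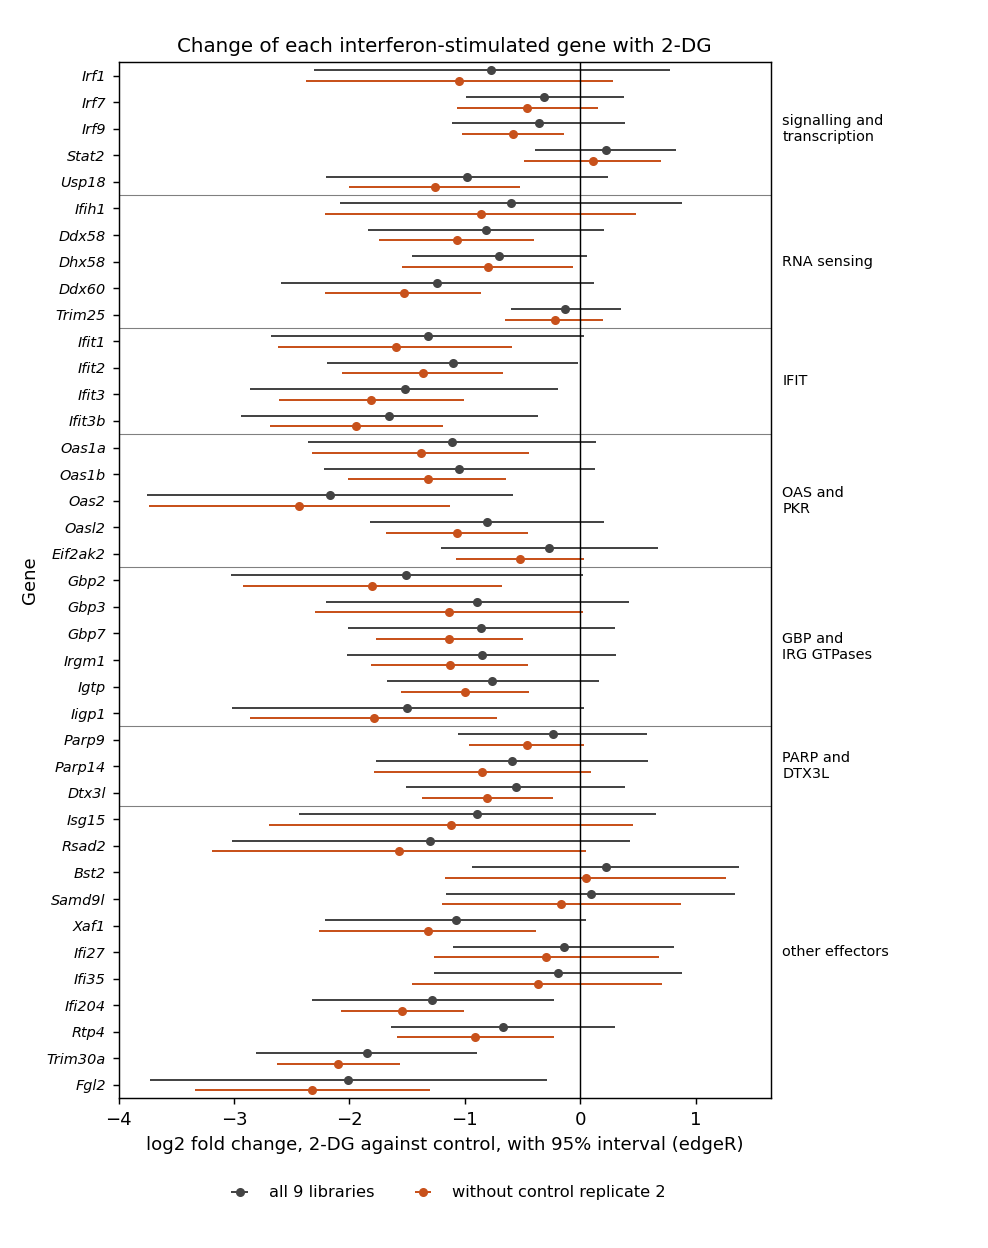
Log2 fold change of 2-DG against control for each of the 39 genes (points) with its 95% interval from edgeR (bars), from all 9 libraries (grey) and without control replicate 2 (orange), ordered by family. In the fit of all libraries the intervals of 7 genes lie below 0, and without control replicate 2 those of 24 genes do.

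The order of the libraries was much the same from gene to gene. Control replicate 2 was the lowest of the 5 controls in 36 members (92.3%, against 30.7% of all genes tested) and the lowest of all 9 libraries in 31. Control replicates 4 and 5 were the highest 2 controls in 33 members (84.6%, against 17.6%), and control replicate 5 was the highest of all 9 in 30. A 2-DG library was the highest of the 9 in 3 members (7.69%, against 42.1%). Within the 2-DG group, replicate 4 was highest in 24 members (61.5%, against 39.8%). All 4 2-DG libraries lay above control replicate 2 in 33 members (84.6%, against 28.3%). Summed over the 39 genes, the control libraries had 1865.4, 521.6, 1628.0, 3186.1 and 3562.9 CPM (replicates 1 to 5), and the 2-DG libraries had 903.8, 1218.9, 958.3 and 1770.7 CPM (replicates 1 to 4). The 2-DG libraries thus lay between the lowest control and the rest, except that replicate 4 exceeded control replicate 3.

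**Figure D2:**
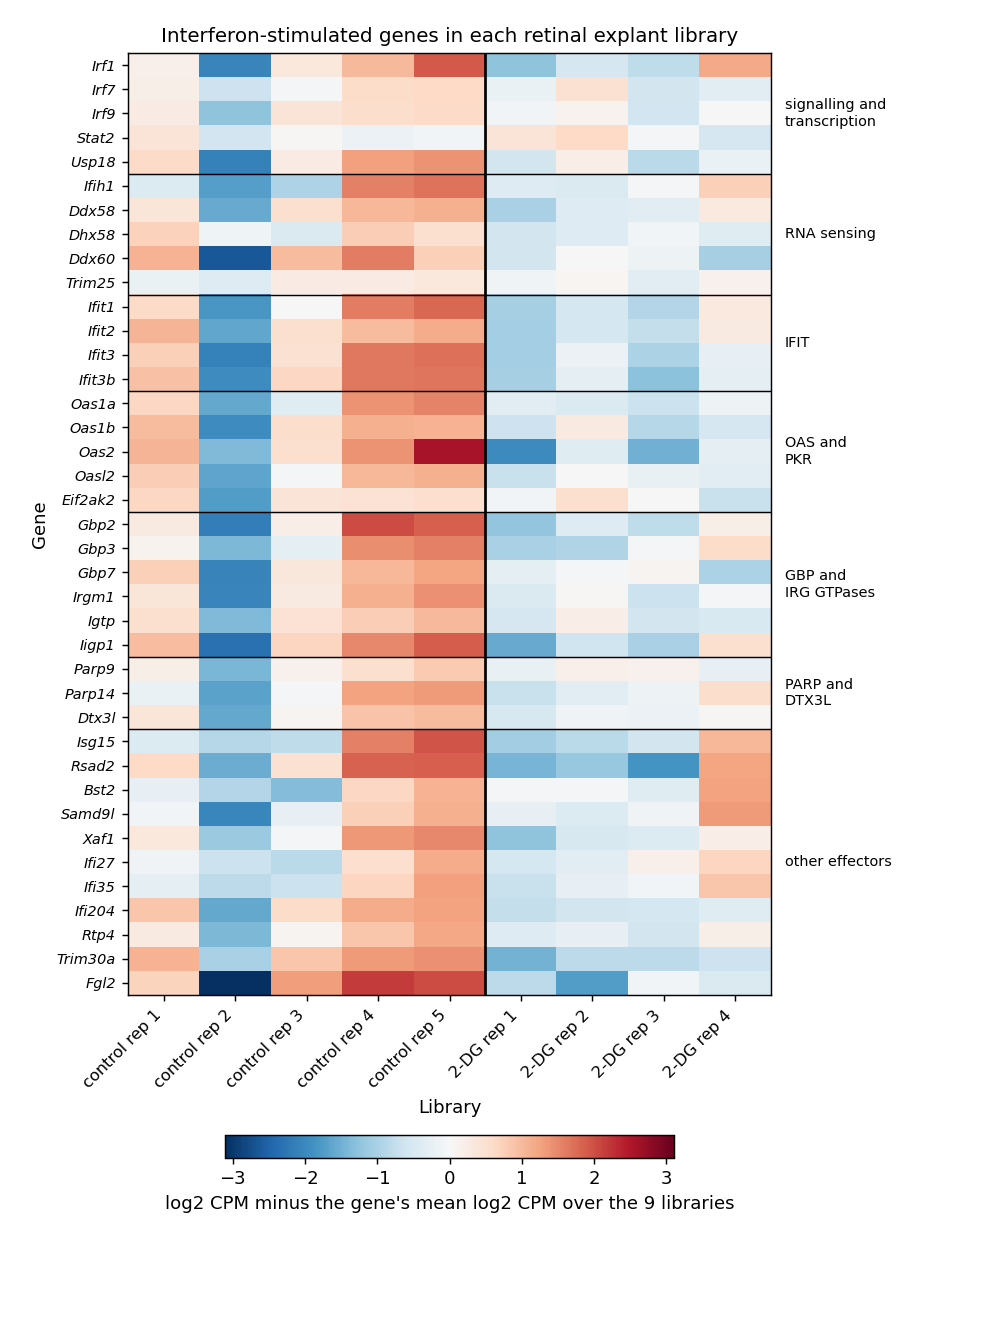
Log2 CPM of each of the 39 genes (rows, by family) in each of the 9 libraries (columns), shown as the difference from the gene's mean over the 9 libraries, with red above and blue below that mean. Control replicate 2 is blue in nearly every row, control replicates 4 and 5 are mostly red, and 2-DG replicate 4 is red in Irf1, Rsad2, Bst2 and Samd9l among others.

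Markers of other cells did not follow one order. The 12 microglia and macrophage markers, of which Aif1 was under 1 CPM in every library, summed to 34.2 to 87.4 CPM in control and 35.4 to 104.3 CPM in 2-DG libraries, with control replicate 2 the lowest of the controls and 2-DG replicate 3 the highest of all. The 11 markers of other leukocytes summed to 9.0 to 12 CPM in control and 10 to 12.3 CPM in 2-DG, and 5 of them (Cd3e, Cd3g, Nkg7, Ly6g and S100a8) were under 1 CPM in every library. The 10 endothelial markers shared part of the order of the interferon-stimulated genes. They summed to 1499.7 and 2791.5 CPM in control replicates 4 and 5 and to 4037.6 CPM in 2-DG replicate 4, against 467.7 to 867.3 CPM in the other libraries apart from 2-DG replicate 3 (1529.8 CPM). Control replicate 1 had the lowest endothelial sum and the third highest sum of the 39 genes, so the orders differed. Over the groups their ranges were 467.7 to 2791.5 and 711.6 to 4037.6 CPM. The 6 Müller glia markers summed to 1778.5 to 6472.6 CPM in control, highest in replicates 4 and 5, and to 782.2 to 3013.1 CPM in 2-DG. The part of these markers in the differences between libraries was not tested.

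In the signalling and transcription family 4 of 5 genes were below 0, with a median log2 fold change of −0.36, and 0 passed an unadjusted p of 0.05. The median was −0.58 without control replicate 2, −0.57 when 2-DG replicate 2 was left out and −0.23 when 2-DG replicate 3 was. Usp18, a protease that strips ISG15 from proteins and dampens the receptor, had the smallest p. It was measured at 32.3, 5.01, 25.3, 51.6 and 56.2 CPM in control replicates 1 to 5, and at 14.3, 24.7, 11.9 and 18.5 CPM in 2-DG replicates 1 to 4, the order used for every gene below. Every 2-DG value lay below the 4 higher controls and above control replicate 2. Its log2 fold change was −0.98 (SE 0.55, adjusted p = 0.747), and −1.26 (SE 0.33, adjusted p = 0.192) without that control. Irf1, a transcription factor that interferon gamma induces quickly, was the most abundant of the family by CPM. It had 99.7, 21.6, 112.1, 180.8 and 335.0 CPM in control and 37.5, 62.3, 52 and 200.4 CPM in 2-DG. The 2-DG replicate 4 value exceeded 4 of the 5 controls, so the groups overlapped even without control replicate 2. The log2 fold change of −0.77 (SE 0.70) became −1.57 without 2-DG replicate 4 and −0.24 without control replicate 5.

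Irf7, the factor that amplifies interferon production, and Stat2 and Irf9, the partners in ISGF3, stayed closer together. Irf7 was read at 35.0, 19.9, 29.4, 45.6 and 47.6 CPM in control and 26.7, 42.9, 20.7 and 24.5 CPM in 2-DG, a log2 fold change of −0.31 (SE 0.31). Stat2 was read at 111.8, 55.3, 86.0, 74.7 and 78.6 CPM in control and 110.3, 129.2, 80.3 and 58.6 CPM in 2-DG, a log2 fold change of 0.22 (SE 0.28, 95% interval −0.39 to 0.83). For both genes the groups overlapped with or without control replicate 2. Irf9 had a log2 fold change of −0.36, and of −0.58 (SE 0.19, unadjusted p = 0.0151) without that control. By gene span, Irf7 overlaps Phrf1, Irf9 overlaps Rnf31 and Irf1 overlaps Gm17334. Overlap of their exons was not checked, and whether the counting used strand is not given in the sources used here. Reads of these pairs may therefore be mixed.

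All 5 RNA sensing genes were below 0 (median log2 fold change −0.70), and 0 passed an unadjusted p of 0.05 with all libraries. Ddx58 encodes RIG-I and Ifih1 encodes MDA5, the cytosolic receptors for viral RNA, and Dhx58 encodes their regulator LGP2. Dhx58, the family's smallest p, was low throughout, with 7.84, 4.37, 3.51, 8.06 and 6.69 CPM in control and 3.23, 3.61, 4.52 and 3.69 CPM in 2-DG. Here control replicates 2 and 3 lay among the 2-DG values, and the log2 fold change was −0.70 (SE 0.34, adjusted p = 0.713). Trim25, the ubiquitin ligase that activates RIG-I, was the most abundant of the family by CPM and varied least. Its values were 66.8, 58.7, 92.3, 91.2 and 97.0 CPM in control and 71.7, 80.3, 60.6 and 85.1 CPM in 2-DG. With a log2 fold change of −0.13 (95% interval −0.60 to 0.35) its groups overlapped widely. Ddx60, a helicase linked to RIG-I signalling, ranged from 1.58 to 29.6 CPM in control and from 4.78 to 9.74 CPM in 2-DG. Its log2 fold change was −1.24 (SE 0.61), and −1.53 (SE 0.30, adjusted p = 0.0859) without control replicate 2, which held the 1.58 CPM. Ddx58 (−0.82) and Ifih1 (−0.60) were also below 0, with adjusted p = 0.749 and 0.856 in edgeR. With one library left out, Ifih1 lay between −0.93 and −0.16.

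The IFIT family had the lowest median log2 fold change of the 7, −1.42. Of its 4 genes, 3 were lower at an unadjusted p under 0.05, against 4.83% of all genes. Some IFIT proteins bind viral RNA through its 5′ end and hold back its translation. Ifit3 was the most abundant member per exon length, at 115.1 CPM per kb in control and 40.1 CPM per kb in 2-DG on average. It was measured at 173.9, 23.9, 143.7, 321.7 and 341.0 CPM in control and 49.6, 91.2, 52.6 and 86.2 CPM in 2-DG. Control means were 200.8 ± 131.9 CPM (SD, n = 5), and 2-DG means 69.9 ± 21.9 CPM (SD, n = 4). All 2-DG libraries were below 4 controls and above the fifth, control replicate 2. This gave a log2 change of −1.52 (SE 0.60, adjusted p = 0.646 in edgeR), and −1.81 (SE 0.35, adjusted p = 0.0859) without that library.

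Ifit3b, its near copy, was also lowest in control replicate 2 and highest in control replicates 4 and 5. Its values were 65.8, 9.02, 54.8, 109.4 and 110.7 CPM in control and 17.1, 28.3, 14.4 and 28.9 CPM in 2-DG, with a log2 change of −1.66 (SE 0.58, adjusted p = 0.602). Without control replicate 2 it was −1.94 (SE 0.33, adjusted p = 0.0660). The unadjusted p stayed under 0.05 with any of the 9 libraries left out. Ifit2 had a log2 fold change of −1.10 (unadjusted p = 0.0473) and Ifit1 one of −1.32 (unadjusted p = 0.0548). Ifit1 overlapped between the groups without control replicate 2 as well, since 2-DG replicate 4 (76.7 CPM) exceeded control replicate 3 (62.1 CPM), whereas Ifit2, Ifit3 and Ifit3b did not.

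All 5 genes of the OAS and PKR family were below 0, with a median log2 fold change of −1.05. Of these, 1 gene, Oas2, was lower at an unadjusted p under 0.05 (background 4.83% of genes). OAS enzymes make short chains of linked adenylate that activate RNase L, and PKR, encoded by Eif2ak2, stops translation when it binds double-stranded RNA. Oas2 was the least abundant of the 39 per exon length (0.934 CPM per kb in control). It had 3.46, 0.644, 2.37, 4.40 and 9.92 CPM in control and 0.424, 1.28, 0.593 and 1.37 CPM in 2-DG. Control replicate 5 was well above every other library, and without it the log2 fold change of −2.17 (SE 0.71) was −1.56 (SE 0.63). Its unadjusted p stayed under 0.05 with any of the 9 libraries left out, and the adjusted p was 0.570 with all of them.

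Oasl2, an OAS-like protein and the most abundant of the family by CPM, was measured at 94.8, 18, 53.7, 114.1 and 119.4 CPM in control and 34.6, 56.1, 47.8 and 44.1 CPM in 2-DG. One 2-DG library exceeded control replicate 3, and the log2 fold change was −0.81 (SE 0.46). Oas1a (−1.11) and Oas1b (−1.05, annotated as a polymorphic pseudogene) lay near each other, and Eif2ak2 was closest to 0 at −0.27. Without control replicate 2, 4 of the 5 were lower at an unadjusted p under 0.05 (background 6.07% of genes), all but Eif2ak2.

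The 6 GTPases were all below 0 (median log2 fold change −0.87), against 50.8% of all genes tested, and 0 passed an unadjusted p of 0.05. GBP and IRG proteins assemble on the vacuoles of bacteria and parasites and break them open. Gbp2 had both the smallest p and the highest level of the family. It was measured at 84.4, 15.5, 80.4, 283.1 and 249.7 CPM in control and 29.4, 52.6, 39.9 and 78.9 CPM in 2-DG. Only 2-DG replicate 4 came close to control replicates 1 and 3, and every 2-DG value lay far below control replicates 4 and 5. On the log2 scale the fold change was −1.51 (SE 0.69, adjusted p = 0.689), and −1.80 (SE 0.50, adjusted p = 0.221) without control replicate 2. Iigp1 (−1.50), Gbp3 (−0.89), Gbp7 (−0.86), Irgm1 (−0.85) and Igtp (−0.76) followed. Without that control the groups did not overlap in 5 of the 6, all but Gbp3, against 4.51% of all genes. Igtp overlaps the span of Irgm2 on the same strand, and overlap of their exons was not checked, so its reads may be mixed with those of that gene.

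PARP9, PARP14 and DTX3L are ADP-ribosyltransferases and a partner ubiquitin ligase that modify proteins during the response. Their genes had a median log2 fold change of −0.56, with 0 of 3 at an unadjusted p under 0.05. The median was −0.28 without control replicate 5 and −0.35 without control replicate 4. Dtx3l was read at 23.0, 5.87, 18.8, 32.9 and 34.8 CPM in control and 12.5, 16.4, 15.7 and 18.1 CPM in 2-DG. Apart from control replicate 2 every control exceeded every 2-DG library. Its log2 fold change was −0.56 (SE 0.43), and −0.81 (SE 0.25, adjusted p = 0.290) without that control. Parp14 was read at 45.8, 16.8, 51.7, 125.8 and 133.4 CPM in control and 32.8, 41.3, 47.5 and 76.8 CPM in 2-DG, a log2 fold change of −0.59 (SE 0.53), and its groups overlapped. Parp9, which overlaps Dtx3l, had a log2 fold change of −0.24.

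**Figure D3:**
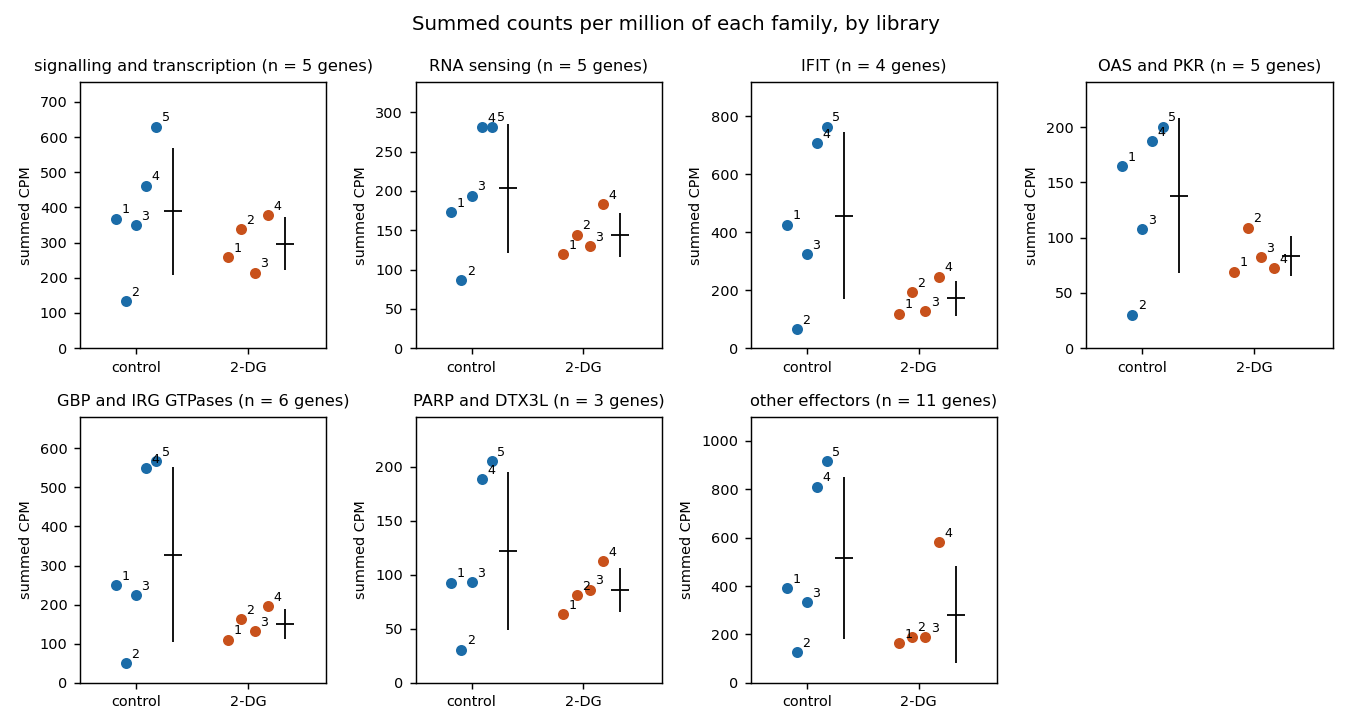
Summed CPM of each of the 7 families in each library, with points numbered by replicate, control in blue and 2-DG in orange, and the mean with its SD beside each group. Control replicate 2 is the lowest library in every family, and control replicates 4 and 5 are the highest controls in every family. Among 2-DG libraries, replicate 4 stands at 582.4 CPM in the other effectors, against 164.6 to 190.1 CPM in the other 3.

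Among the 11 other effectors, 9 were below 0. The median log2 fold change of the family, −0.89, was −0.40 without control replicate 5 and −1.34 without 2-DG replicate 4. Of the 11, 3 were lower at an unadjusted p under 0.05 (background 4.83% of genes). These were Trim30a, Ifi204 and Fgl2. Trim30a, a tripartite-motif protein known to restrain inflammatory signalling, had the smallest p of all members. It was measured at 45.1, 10.6, 38.7, 53.5 and 57.1 CPM in control and 7.72, 12.1, 12.1 and 13.6 CPM in 2-DG. Control replicate 2 fell inside the range of the 2-DG libraries, and the other controls were at least 38.7 CPM. With all libraries the log2 fold change was −1.85 (SE 0.43, unadjusted p = 0.00145, adjusted p = 0.514). Without control replicate 2 Trim30a passed the test, with a log2 change of −2.10 (SE 0.24, adjusted p = 0.0340 in edgeR), lower in 4 of 4 2-DG libraries. Its unadjusted p stayed under 0.05 with any of the 9 libraries left out, and the log2 fold change stayed between −2.10 and −1.70.

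Fgl2, a fibrinogen-like protein made by macrophages and T cells, had 9.04, 0.644, 13.6, 25.3 and 22.6 CPM in control and 3.14, 1.68, 5.24 and 4.06 CPM in 2-DG. Apart from the 0.644 CPM of control replicate 2, the lowest of all 9 libraries, each control exceeded each 2-DG library. Its log2 fold change was −2.01 (SE 0.78), and −2.32 (SE 0.45, adjusted p = 0.0857) without that control. Fgl2 lies within or across the span of Ccdc146 on the opposite strand. Whether their exons overlap was not checked, so whether reads are mixed is not known. Ifi204, a sensor of DNA, ranged from 3.22 to 23.2 CPM in control and from 5.77 to 7.44 CPM in 2-DG. Its log2 fold change was −1.28 (unadjusted p = 0.0210), and −1.54 (adjusted p = 0.0620) without control replicate 2.

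Rsad2 and Isg15 are induced strongly in most interferon responses, and in both one 2-DG library stood far above the other 3. Rsad2 encodes viperin, an enzyme that makes a chain-terminating nucleotide. It was read at 169.1, 37.9, 153.1, 394.4 and 398.7 CPM in control and 40.0, 48.9, 30.1 and 256.8 CPM in 2-DG. The first 3 2-DG libraries were near control replicate 2, and 2-DG replicate 4 exceeded control replicates 1 and 3. The log2 fold change of −1.30 (SE 0.78, adjusted p = 0.762) was −2.54 (SE 0.69, adjusted p = 0.291) without 2-DG replicate 4.

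Isg15, a ubiquitin-like protein joined to others during the response, was read at 21.7, 15.8, 16.9, 86.5 and 112.7 CPM in control and 13.8, 16.2, 19.7 and 59.5 CPM in 2-DG. Controls 4 and 5 and 2-DG replicate 4 were high, and the other libraries of both groups lay together. The log2 fold change was −0.89 (SE 0.70), −1.61 without 2-DG replicate 4 and −0.38 without control replicate 5. Bst2, which tethers virus particles to the cell surface, and Samd9l, which restricts translation, were above 0, at 0.22 (95% interval −0.94 to 1.38) and 0.09 (−1.16 to 1.34). Both were highest in 2-DG replicate 4, and without it both were below 0 (−0.28 for Bst2 and −0.49 for Samd9l). Samd9l was below 0 without control replicate 2 as well (−0.17). Xaf1 (−1.08), Rtp4 (−0.67), Ifi35 (−0.19) and Ifi27 (−0.14) made up the rest, with adjusted p-values from 0.701 to 0.949 in edgeR. Ifi35 and Ifi27 were both at 0.22 without control replicate 5. Rtp4 overlaps Masp1.

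The transcript table showed which form of each gene was counted. For 6 of the 39 genes only 1 transcript was listed, which leads in both groups by construction. For 36 of the 39 genes, these 6 included, the same transcript led in both groups. For 24, again with these 6, it carried over 80% of the gene's counts in control libraries. The leading transcripts of Ddx60, Iigp1 and Xaf1 differed. For Iigp1 the transcript that led in control had 45.2% ± 11.3 (SD, n = 5) of the counts there and 17.6% ± 13.4 (SD, n = 4) in 2-DG. The leading transcript of Gbp3 had 80.1% ± 14.5 in control and 53.4% ± 12.9 in 2-DG, and that of Ifi27 39.5% ± 6.24 and 63.4% ± 6.08. These shares depend on how reads were divided between similar transcripts, and no test was made of them.

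The ligands and receptors of the pathway were compared next. The only interferon gene with enough counts to be tested was Ifnb1, which encodes interferon beta. It had 0.961, 0.430, 1.15, 4.35 and 5.23 CPM in control and 0.679, 0.467, 0.648 and 8.35 CPM in 2-DG. The same 3 libraries stood out as for Isg15: control replicates 4 and 5 and, above them, 2-DG replicate 4. The log2 fold change of Ifnb1 was 0.06 (SE 0.99, adjusted p = 0.992), and it was −2.04 without 2-DG replicate 4 and −0.20 without control replicate 2. Of the other 9 ligand genes listed, Ifna1, Ifna5, Ifnk, Ifnl2 and Ifnl3 had 0 counts in every library, which allows up to 0.255 CPM in the shallowest one. Ifna2, Ifna4, Ifne and Ifng had between 2 and 10 counts over all libraries. Counts that low do not show a difference at this depth.

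With all libraries, receptor genes other than Ifnlr1 had log2 fold changes from 0.00 to 0.38. Ifnar1 was measured at 62.6, 33.0, 71.4, 101.5 and 123.5 CPM in control and 63.8, 65.9, 79.3 and 118.4 CPM in 2-DG, a log2 fold change of 0.06 (SE 0.36). Ifnar2 was measured at 18.5, 8.81, 21.5, 38.1 and 61.1 CPM in control and 28.7, 33.0, 27.9 and 64.6 CPM in 2-DG, a log2 fold change of 0.38 (SE 0.50). In both, control replicate 5 and 2-DG replicate 4 were the highest libraries of their groups. Ifngr1, Ifngr2 and Il10rb had log2 fold changes of 0.02 (SE 0.53), 0.00 (SE 0.43) and 0.00 (SE 0.68). Without 2-DG replicate 4 these were −0.61, −0.43 and −0.91, and without control replicate 5 they were 0.43, 0.20 and 0.56. The log2 fold change of Ifnar1 lay between −0.17 and 0.28, and that of Ifnar2 between 0.01 and 0.82, with one library left out. Ifnlr1, the receptor for interferon lambda, had 0.143 to 1.74 CPM in control and 0.170 to 0.622 CPM in 2-DG, with a log2 change of −1.24 (SE 0.67, adjusted p = 0.738). The kinases Jak1, Jak2 and Tyk2 had log2 fold changes of −0.03, −0.03 and −0.07.

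**Figure D4:**
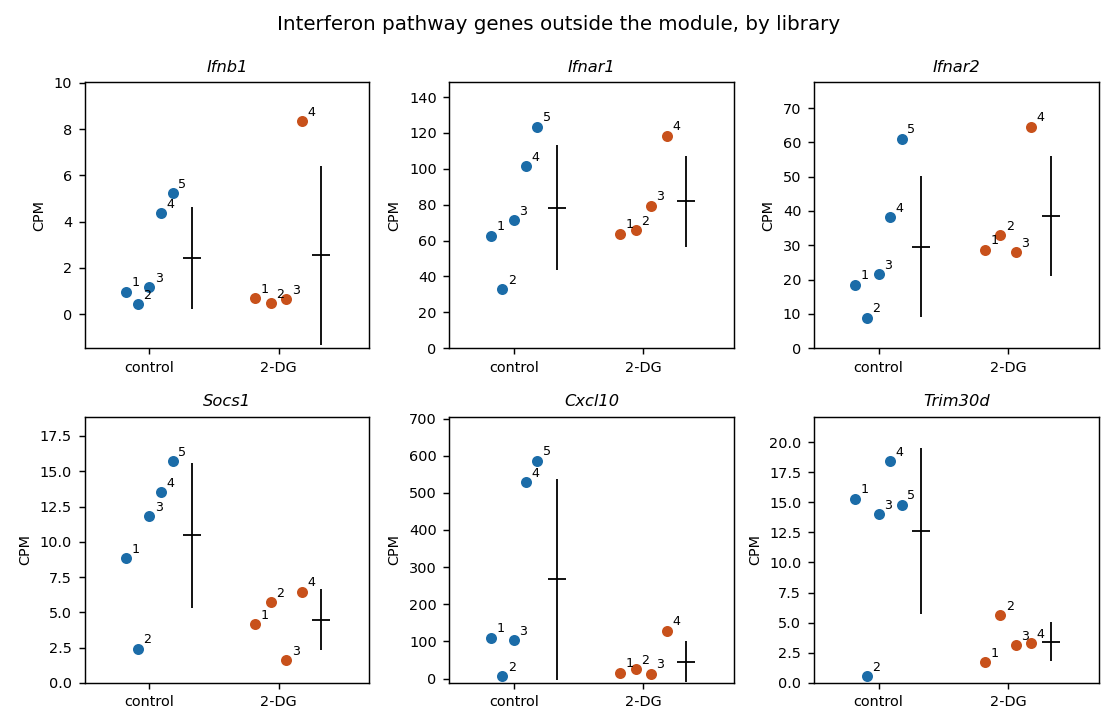
CPM of 6 pathway genes outside the 39 in each library, with points numbered by replicate, control in blue and 2-DG in orange, and the mean with its SD beside each group. Ifnb1, Ifnar1 and Ifnar2 are highest in control replicate 5 or 2-DG replicate 4, Socs1 is lower in all 4 2-DG libraries than in every control but replicate 2, Cxcl10 is highest in control replicates 4 and 5, and Trim30d has the same order of groups as Socs1.

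A list of 111 further pathway genes was read in the same fit, and 100 of them had enough counts. Of these, 67 were below 0, against 50.8% of all genes, and the median log2 fold change of the 100 was −0.33. Without control replicate 2, 75 were below 0, against 46.9% of all genes, and the median was −0.49. With all libraries, 12 were lower at an unadjusted p under 0.05 (background 4.83%) and 1 was higher (background 2.42%). None passed an adjusted p of 0.05 in edgeR. Most of the lower ones, 10, were among the 62 tested genes that are interferon-stimulated but outside the 39, whose median was −0.51. The induction genes (15, median 0.03), the receptors and kinases (9, median 0.00) and the STAT and IRF factors outside the members (6, median −0.13) lay nearer the median of all genes. The 7 genes listed as inhibitors, which also hold the antiviral exonuclease Isg20 and the regulator Nlrc5, had a median of −0.50, the value of Isg20, with Socs1, a feedback inhibitor of the Janus kinases, at −1.22 (SE 0.55, unadjusted p = 0.0499).

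The 3 further genes with the smallest p among those lower were Apol9b, Slfn9 and Apol9a. Apol9b, an apolipoprotein L of the mouse, had 4.11, 0.644, 2.60, 4.35 and 6.24 CPM in control and 0.340, 0.747, 0.371 and 1.00 CPM in 2-DG, a log2 change of −2.52 (SE 0.64, adjusted p = 0.524). Slfn9, of the Schlafen family, had a log2 fold change of −1.37 (SE 0.45), and Apol9a one of −2.41 (SE 0.82). In all 3 genes control replicate 2 lay among the 2-DG libraries, and each of the other 4 controls exceeded every 2-DG library. Cxcl10, Trim30d and Socs1 were named after their values were seen. Cxcl10 and Trim30d had log2 fold changes of −2.55 (SE 1.14) and −1.87 (SE 0.73). Cxcl10, a chemokine that draws T cells, had 528.9 and 586.6 CPM in control replicates 4 and 5, and 129.4 CPM in 2-DG replicate 4, against 6.30 to 109.7 CPM in the other libraries.

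In the other direction the smallest p-values were those of Tlr9, Traf3 and Lgals9. Tlr9, the endosomal receptor for DNA, had 0.115, 0.501, 0.458, 0.343 and 0.355 CPM in control and 2.12, 0.809, 1.24 and 0.172 CPM in 2-DG. It rested on 40 counts in all controls and 124 in all 2-DG libraries, with a log2 change of 1.60 (SE 0.67, adjusted p = 0.664), and 2-DG replicate 4 was lower than 4 of the 5 controls. Traf3, an adaptor in interferon induction, had a log2 fold change of 0.36 (SE 0.22) and Lgals9, a secreted lectin, one of 0.46 (SE 0.32).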

How the data were processed

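RNA-seq of 9 retinal explant libraries (5 control, 4 2-DG) was analysed. Total RNA (4 ng) was made into stranded libraries with 13 cycles of PCR and sequenced from both ends (101 bases). All libraries carry the batch label 1. The authors deposited estimated counts per gene and per transcript, not scaled between libraries. The submitters' processing notes name kallisto and the build GRCm38, and how gene values were made from transcripts is not given in the sources used here. Of all columns, 0 lacked a sample. The deposited CPM and the authors' table of fold changes, mean log2 CPM, F statistics, p-values and adjusted p-values were not used.

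Estimated counts were rounded, which altered no library total by more than 0.00377%. In R 4.3.3, edgeR 4.0.16 was used with filterByExpr, TMM scaling, glmQLFit (legacy) and glmQLFTest, with group as the only term. Two-sided p-values received a Benjamini-Hochberg adjustment over all 21049 genes kept (20632 without control replicate 2), at a threshold of 0.05. The standard error was the absolute log2 fold change over the square root of F. CPM used the TMM-scaled library size. Totals of 11318087 to 51802230 counts set the precision, and floors of 3 counts cover counting error only. Since nothing ties libraries to separate mice, p-values measure the spread between these libraries.

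The members, the other lists and the tests were chosen with earlier results of these data known. Values in every library are given for the gene of each family with the smallest p and the highest mean CPM, any gene past the threshold, and Irf7, Stat2, Isg15, Usp18 and Fgl2 in any case. Of the other pathway genes, ligands and receptors are given in any case, and the 3 with the smallest p in each direction. Symbols were matched for 99.4% of gene IDs, and exon lengths came from GENCODE M21. The 17 alternatives were other scalings, no filter, DESeq2 1.42.0, limma 3.58.1 voom with quality weights, the replicate number as a block, each library left out, and genes as sums of transcripts (added after seeing the data). The edgeR step was tested on simulated counts. Labels of both groups carry the same culture text, which mentions 2-DG, so groups rest on titles and treatment labels. One item is not reported here.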

Additional observations from a re-analysis of the deposited data

Results flagged for a closer look

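In 48 groups of 4 or 5 libraries, the lowest or highest value on the log2 scale was compared with its group by Dixon's test, of which chance flags about 1 in 20. It marked 4. Control replicate 2 stood below the other controls for Trim30a, at 10.6 CPM, for Ifit3b, at 9.02 CPM, and for Fgl2, at 0.644 CPM. In the 2-DG group, replicate 4 stood above the other libraries in the summed CPM of the other effectors, at 582.4 CPM.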

How the results depend on the processing

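The number of members past an adjusted p of 0.05 was 0 with edgeR and 1 with DESeq2 (284 genes in all, 1.35%). With limma-voom and quality weights it was 11 (1222 genes, 5.81%), and leaving out one library gave 0 to 1, the 1 without control replicate 2. The number lower at an unadjusted p under 0.05, 7 with all libraries, was 11 with library size only (6.54% of all genes, against 4.83%), 12 with upper-quartile scaling (6.07%), 11 with no filter on low counts (5.19%), 14 with DESeq2 (6.78%) and 28 with limma-voom (15.4%). Leaving out one library gave 3 to 24: 24 without control replicate 2 (6.07% of all genes), 11 without control replicate 3 (4.26%), 4 without control replicate 4 (3.28%) or 5 (3.32%), 3 if 2-DG replicate 1 (3.17%) was dropped and 14 if 2-DG replicate 4 (9.49%) was. Of the other pathway genes, 12 were lower, and 42 with limma-voom, with 3 to 27 on leaving out one library: 27 without control replicate 2, 3 without control replicate 4, 4 if control replicate 5 or 2-DG replicate 3 was dropped, 5 if 2-DG replicate 1 was and 6 if 2-DG replicate 2 (3.28%) was. Of 100 genes, 3 to 6 is near the shares of all genes in those fits, where the share without 2-DG replicate 3 was 4.42%. The 1 higher became 2 with limma-voom (10.6% of all genes) and 0 to 2 on leaving out one library, with 0 without control replicate 1 or 4 or 2-DG replicate 1 or 3 and 2 without control replicate 5. With the replicate number as a block, the replicate block fit gave 2 members (against 3.18% of all genes) and 3 other pathway genes lower and 7 higher (against 3.24% of all genes), and a median of −0.41 (families −0.87 to −0.02). Whether the numbers pair the samples is not given. Deviations of same-numbered libraries had correlations of 0.451, −0.155, 0.102 and 0.205, and 1 of 4 2-DG libraries was closest to its own number. So few correlations cannot decide whether same-numbered libraries share a mouse. The median of the members was otherwise between −1.12 and −0.63, with 34 to 38 of 39 below 0 (32 with the block). Library size only and upper-quartile scaling moved the median of all genes by no more than 0.09. None of the 17 members given in every library had the sign of its log2 fold change turned by an alternative. The causes of these shifts were not tested. At this depth no difference was detectable in the interferon alpha and lambda genes, which had few or 0 counts.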
